A study of Mus musculus with 9 samples.

Results

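The regions described here carried an XBP1 peak 6 h after partial hepatectomy and 6 h after a sham operation, had no peak in basal liver or 48 h after either operation, and still overlapped a peak in liver in which XBP1 had been silenced before hepatectomy. They were chosen from the peak lists themselves. Peaks of the 5 unsilenced lists that overlapped by at least 1 bp were merged into 28099 regions, 9422 of these had a peak in both 6 h lists and in no other unsilenced list, and 689 of the 9422 overlapped a peak of the silenced list 6 h after hepatectomy. The 9422 regions are called transient below, and the 689 are called kept transient regions. Regions with a peak in all 5 unsilenced lists, 1859 in number, are called lasting and serve as the comparison.

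XBP1 is a basic leucine zipper transcription factor of the unfolded protein response. The endoribonuclease IRE1 splices its messenger RNA when unfolded proteins build up in the endoplasmic reticulum, and the spliced form encodes the active factor, which switches on genes for chaperones, protein export and the degradation of misfolded proteins. In hepatocytes, which secrete most plasma proteins, it is also known for its part in lipid synthesis. Partial hepatectomy removes most of the liver and makes the remaining lobes regrow, while a sham operation opens the abdomen and handles the lobes without removing tissue.

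All libraries came from liver of wildtype C57Bl6-J mice, and surgery was done at 8 weeks of age. Among the unsilenced groups 1 was basal, and the others were taken 6 h or 48 h after either partial hepatectomy or the sham operation. The silenced groups were basal liver and liver 6 h and 48 h after hepatectomy, taken from mice given the shXBP1 hairpin 7 days earlier. The hairpin was carried by an adenovirus that expresses it constitutively and was injected into the tail vein after clodronate liposomes. The protocols also describe a control virus with a hairpin against LacZ. Whether the unsilenced mice received it, or clodronate liposomes, is not stated in the labels. The word silenced below therefore names the whole treatment, in which hairpin, virus and clodronate cannot be told apart. There was 1 library per condition and no silenced sham liver, and the labels do not say whether a library pools animals. No difference below could therefore be set against a spread between animals, and no p-value was computed. Intervals are 95% Clopper-Pearson intervals over regions and cover counting error only.

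The lists that chose the regions differed in length, with 22071 peaks 6 h after hepatectomy, 23087 peaks 6 h after the sham operation and 4325 peaks in the silenced liver 6 h after hepatectomy. Basal liver had 2482 peaks, and at 48 h there were 7212 peaks in the hepatectomy list and 4622 in the sham list. The sources used here give no read numbers, so a shallower library and fewer occupied sites cannot be told apart, both for the silenced list and for the lists in which the regions had no peak. Coordinates are in mm9, counted from 1. Gene annotation, sequence and marker genes of the tissue were not analysed here, because the tables at hand are on another build.

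A silenced 6 h peak lay on 689 of the 9422 transient regions (7.31%, 6.80 to 7.86%). With only the 4325 highest-scoring peaks of each unsilenced 6 h list, as many as the silenced list holds, the share was 47.5% (41.0 to 54.0%). In that setting 114 regions were kept. It changes list length and score range together, and which of them moved the share was not tested. Among all 16732 regions with a peak in both 6 h lists the share was 24.0%, and among all merged regions it was 14.9%. These shares describe the rule, which used this contrast. The share differed between regions according to how many of the other unsilenced lists had a peak there. With a peak in 1 of the basal, 48 h hepatectomy and 48 h sham lists, 859 of 3569 regions (24.1%, 22.7 to 25.5%) were kept. With a peak in 2 of them it was 942 of 1882 (50.1%, 47.8 to 52.3%), and with a peak in all 3, the lasting regions, it was 1534 of 1859 (82.5%, 80.7 to 84.2%).

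With 1 further list, the share was similar whichever list it was. Regions whose only further peak was 48 h after hepatectomy were kept in 23.6% of 2593 cases (21.9 to 25.3%). Those whose only further peak was 48 h after the sham operation were kept in 25.9% of 886 cases (23.0 to 28.9%), and those whose only further peak was in basal liver in 21.1% of 90 cases (13.2 to 31.0%). The 3 intervals overlap one another and lie above that of the transient regions. Score moved with this order: the median hepatectomy score at 6 h was 17.2 for transient regions, 28.2 with 1 further list, 47.5 with 2 and 110 with 3. Its part in the order is taken up by decile of score below.

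**Figure D1:**
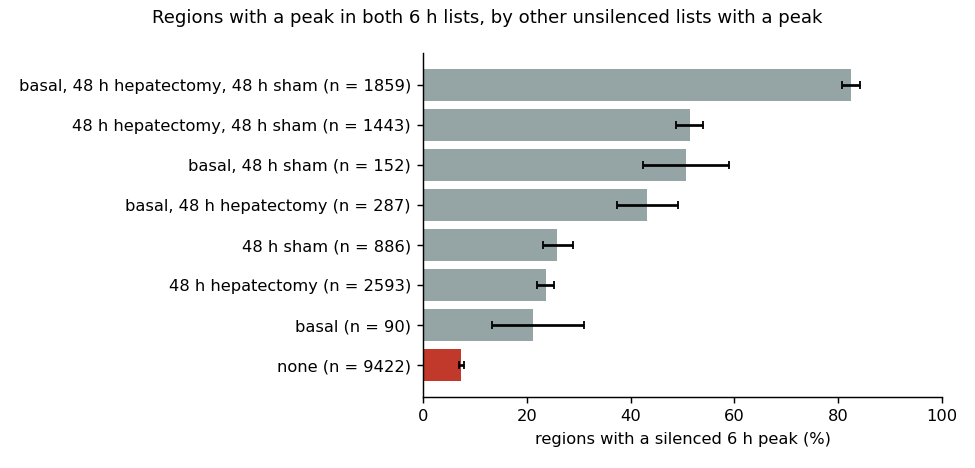
Share of merged regions with a silenced 6 h peak (horizontal axis, percent) among regions with a peak in both unsilenced 6 h lists, grouped by the other unsilenced lists that also had a peak. Bars show the share and whiskers its 95% Clopper-Pearson interval; the transient regions (none, red) are lowest at 7.31% and the lasting regions highest at 82.5%.

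Scores are the authors' own value per peak and are compared within a list only. They were read as −log10 of the p-value of the call, from the values themselves, since no source states the scale. MACS 1.4.2 usually writes 10 times that quantity, so the p-value behind a score is uncertain, while its rank within a list does not depend on the scale. In the 6 h hepatectomy list the kept transient regions scored from 7.98 to 260.42, with a median of 36.2 and quartiles of 24.4 and 53.4. The transient regions that were not kept had a median of 16.05 in the same list, with a range from 5.31 to 137.1. The lasting regions that were kept had a median of 134.5. The 325 lasting regions that were not kept had a median of 46.07. The kept transient regions thus lay above the transient regions not kept and below both kinds of lasting region, with wide overlap. By rank they were spread over most of the list: 78 of the 689 (11.3%) were in its highest decile, and 102 (14.8%) were below its middle rank.

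In the sham list, which had no silenced counterpart, the order of the groups was the same. The kept transient regions had a median sham score of 22.4, with a range from 7.53 to 138.0, against 15.3 for those not kept. For lasting regions the median was 72.9 where kept and 39.6 where not kept. In the silenced list the kept transient regions were weak calls for the most part. Their median score there was 11.8, with quartiles of 9.32 and 14.5 and a highest value of 120.44, and 505 of them (73.3%) ranked below the middle of the silenced list. The kept lasting regions had a median of 23.7 there, and 21.8% of them ranked below the middle.

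**Figure D2:**
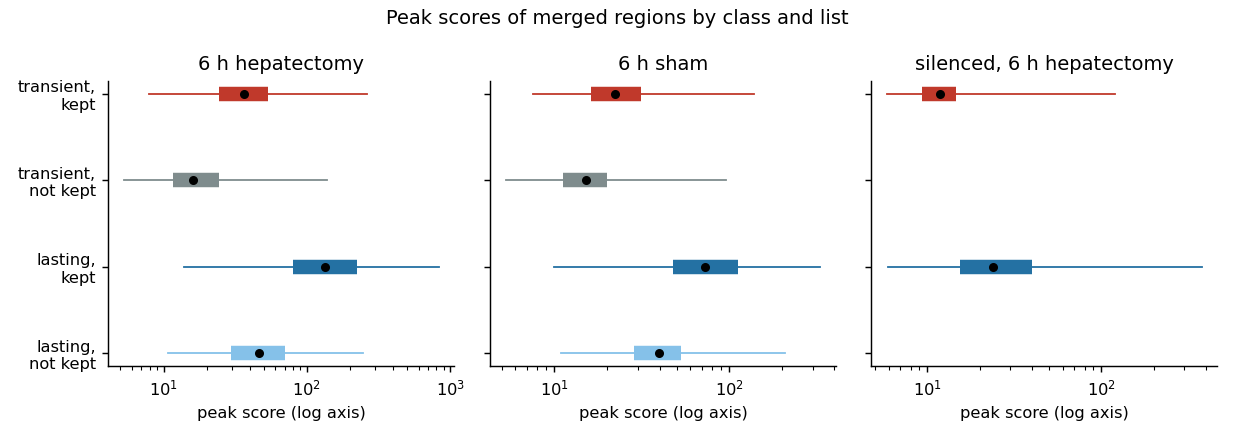
Peak score (horizontal log axis, as deposited) of merged regions in the 6 h hepatectomy, 6 h sham and silenced 6 h hepatectomy lists, by class. Thin lines span the lowest to the highest region, thick bars the quartiles and black dots the median; the kept transient regions (red) have medians of 36.2, 22.4 and 11.8, below those of the kept lasting regions in each list.

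Among transient regions the kept share was far larger at high than at low scores before silencing. Of the 120 transient regions in the highest decile of hepatectomy score, 78 were kept (65.0%, 55.8 to 73.5%), or 38.3% (29.6 to 47.7%) where a hepatectomy peak and a silenced peak had to share at least 50% of each. The share was 33.6% in the second decile (190 of 565) and 17.0% in the third (165 of 969). It was 4.88% in the fifth (55 of 1127) and 0.450% in the lowest (4 of 889). With the sham score in its place the spread was smaller, with 43.1% of the highest decile kept (53 of 123) and 1.21% of the lowest.

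Within deciles of hepatectomy score, transient regions were kept less often than lasting ones. In the highest decile 94.1% of 1316 lasting regions were kept, but their median score there was 156.3 against 85.42 for the transient ones, so this pair is not matched. In the second decile 65.6% of 299 lasting regions were kept (median scores of 56.4 lasting and 50.44 transient), and in the third 51.3% of 117 (37.07 and 34.85). In the fifth decile, where transient and lasting regions had the same median score of 20.73, 4.88% of the transient (3.70 to 6.31%) and 35.1% of the 37 lasting regions (20.2 to 52.5%) were kept. In each of the 5 deciles with at least 20 regions of both kinds, the lasting share was higher, by 29.1 to 34.3 percentage points. With twentieths of the score, an alternative chosen after seeing the data that narrows the difference in score within a bin, it was higher in 8 of 8 bins, by 23.2 to 35.2 points. By deciles of sham score it was higher in 4 of 4, by 38.1 to 47.5 points. The largest of these gaps was in the highest decile, with median sham scores of 82.97 lasting and 51.69 transient, so that pair is not matched either. Lasting and transient regions were not matched on both scores together. Lasting regions were chosen by peaks in 3 further lists and transient ones by their absence, and regions are not replicates, so this difference is a description of these libraries.

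**Figure D3:**
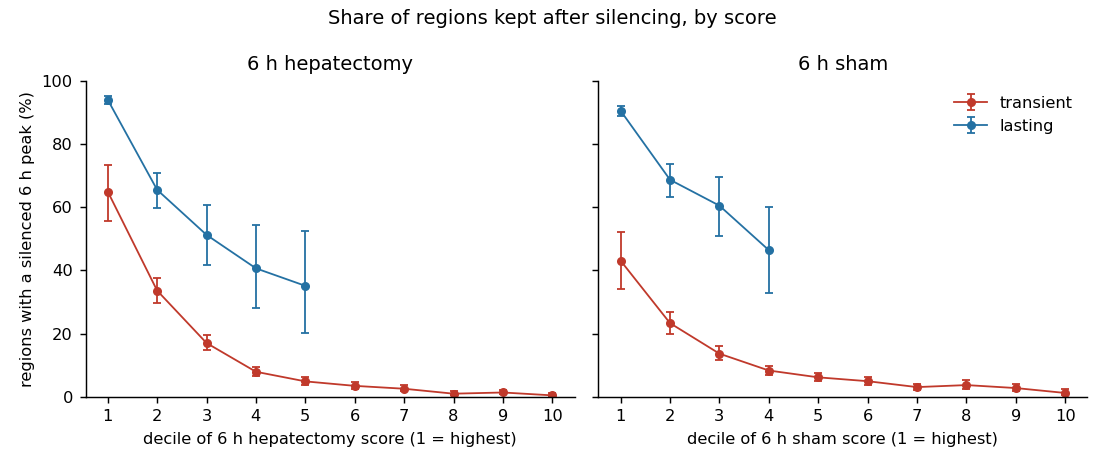
Share of transient (red) and lasting (blue) regions with a silenced 6 h peak (vertical axis, percent) by decile of the 6 h hepatectomy score (left) and the 6 h sham score (right), where decile 1 holds the highest scores. Whiskers are 95% Clopper-Pearson intervals and groups of fewer than 20 regions are not drawn; the share is largest in the highest decile for both kinds of region, and runs from 65.0% to 0.450% for transient regions by hepatectomy score.

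The kept share also differed by the pair of scores. When the 9422 transient regions were split by each score into 4 classes of equal size, 329 of the 1233 in the highest class of both were kept (26.7%, 24.2 to 29.3%). In the highest class by hepatectomy and the lowest by sham, 27 of 204 were kept (13.2%, 8.91 to 18.7%). The hepatectomy scores reached 260.42 in the former class and 96.35 in the latter, so these classes are not matched on that score. In the reverse corner, lowest by hepatectomy and highest by sham, 6 of 185 were kept (3.24%, 1.20 to 6.93%). In the lowest class of both, 11 of 1035 were kept (1.06%, 0.532 to 1.89%), an interval that overlaps that of the reverse corner. These shares describe values that the choice of the regions used, in 1 library per condition.

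The strongest kept transient region by hepatectomy score lay on chromosome 18 (60368489 to 60369464, mm9). It scored 260.42 after hepatectomy (rank 296 of 22071), 123.65 after the sham operation (rank 348 of 23087) and 69.19 after silencing (rank 164 of 4325). It was high in all 3 lists, with the nearest peak of any other unsilenced list 316095 bp away. A region on chromosome 13 (102280228 to 102281060) was also high throughout, with scores of 152.94 after hepatectomy, 86.1 after the sham operation and 40.69 after silencing. A region on chromosome 4 (97526136 to 97526736) scored 147.0, 116.56 and 22.03 in the same order, the last at rank 1137 of 4325. A region on chromosome 1 (83956082 to 83956892) scored 136.33, 99.33 and 24.95.

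Other strong regions were weak after silencing. The second by hepatectomy score, on chromosome 15 (59613746 to 59614452), scored 196.16 after hepatectomy and 111.94 after the sham operation, but 8.41 in the silenced list, at rank 4006 of 4325. A region on chromosome 11 (86437657 to 86438452) scored 176.75 after hepatectomy, 35.44 after the sham operation and 9.97 after silencing, and one on chromosome 3 (142402804 to 142403637) scored 139.91, 68.11 and 9.97. Another on chromosome 3 (115709305 to 115710341) scored 148.97, 54.53 and 11.21. These 4 counted as kept, yet with silenced scores below the median of 11.8 of all kept transient regions. The remaining 2 of the 10 highest lay on chromosome 15 (59170003 to 59170660), with 182.4, 39.61 and 17.62, and on chromosome 10 (93408185 to 93409103), with 143.53, 55.73 and 16.46.

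The highest sham scores picked out partly other regions. Among the 5 highest by sham score, 3 were among the 10 highest by hepatectomy score. The highest of all lay on chromosome 12 (45973528 to 45974196), with 138.0 after the sham operation, 88.03 after hepatectomy and 21.21 after silencing. It ranked 271 in the sham list and 1643 in the hepatectomy list. The fifth lay on chromosome 6 (37655585 to 37656329), with 103.72 after the sham operation, 107.32 after hepatectomy and 35.42 after silencing.

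The regions with the strongest silenced peaks were not always the strongest before silencing. The highest silenced score, 120.44 (rank 63 of 4325), was on chromosome 6 (37744010 to 37744536), where the hepatectomy score was 62.49 (rank 2636) and the sham score 23.6 (rank 6709). The silenced peak covered the whole of this region, 527 of its 527 bp. A region on chromosome 13 (45719067 to 45719655) scored 68.31 after silencing, 68.7 after hepatectomy and 21.89 after the sham operation. One on chromosome 10 (87319053 to 87319652) scored 54.39, 136.33 and 58.77 in that order, its hepatectomy score being equal to that of the region on chromosome 1 above. Of the 689 regions, 24 had a silenced score at or above the hepatectomy score of the same region, a count to be read with care because the scale of the score may differ from list to list.

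Across the 689 regions the scores of the lists followed one another loosely. Spearman's rho was 0.47 between hepatectomy and sham scores, 0.34 between hepatectomy and silenced scores and 0.18 between sham and silenced scores. For the 1534 kept lasting regions the same values were 0.79, 0.74 and 0.66. These correlations are over regions that share their libraries and were selected by being called, and they are given as descriptions. Of the 69 highest kept transient regions by hepatectomy score, 26 were among the 69 highest by sham score and 17 among the 69 highest by silenced score. The 69 were drawn from 689 kept transient regions, but from 1534 regions in the kept lasting group. They are a smaller part of the latter, so the counts of both groups are not at a like cut. Among kept lasting regions, 49 of the 69 highest by hepatectomy score were among the 69 highest by sham score. By silenced score it was 47 of 69. The number that unrelated scores would share was not computed, so these counts do not show that the lists disagreed.

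**Figure D4:**
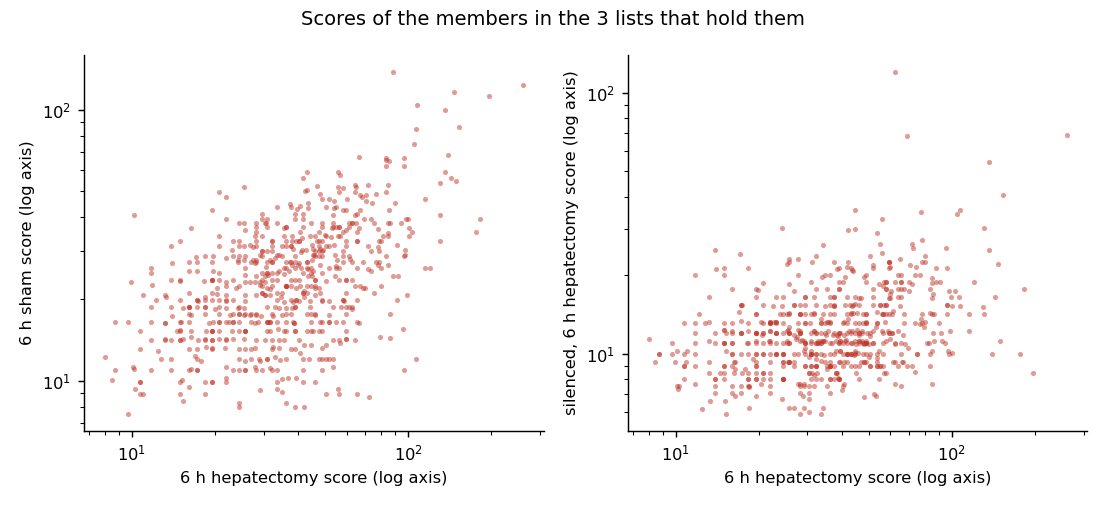
Scores of the 689 kept transient regions, 1 point per region, in the 6 h hepatectomy list (horizontal log axis) against the 6 h sham list (left) and the silenced 6 h hepatectomy list (right, vertical log axes). The cloud is tighter against the sham list (rho 0.47) than against the silenced list (rho 0.34), and the highest silenced score, 120.44, belongs to a region with a hepatectomy score of 62.49.

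At the other end stood regions with low hepatectomy scores. The lowest hepatectomy score, 7.98, belonged to a region on chromosome 5 (77744072 to 77744427), with 12.22 after the sham operation and 11.41 after silencing. A region on chromosome 6 (129121610 to 129122040) had 8.44, 10.08 and 9.25, and one on chromosome 16 (91044706 to 91045088) had 8.71, 10.94 and 9.97. The lowest score of any peak was 5.27 in the hepatectomy and silenced lists and 5.08 in the sham list, so the hepatectomy scores of these regions lay close to the lowest call of that list.

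The rule turns on an overlap of 1 bp between a silenced peak and the merged region, but few regions lay near that limit. The shortest overlaps of a merged region with a silenced peak were 133 bp on chromosome 11 (20295911 to 20296807), 146 bp on chromosome 9 (55131247 to 55131827) and 208 bp on chromosome 6 (21748478 to 21748898). Of the 689 regions, the silenced peak overlapped the highest-scoring hepatectomy peak in 688 and the highest-scoring sham peak in 685. Just outside were transient regions with a silenced peak beside them, at 86 bp on chromosome 18 (74937783 to 74938472), 109 bp on chromosome 9 (20781281 to 20781598) and 118 bp on chromosome 4 (15865130 to 15865671). Those on chromosomes 18 and 9 also lay 26 bp and 109 bp from a peak of the basal or 48 h unsilenced lists. That on chromosome 4 lay beside a kept region (15864301 to 15864955). The silenced peaks can therefore belong to neighbouring regions. The strongest transient regions that were not kept had hepatectomy scores within the range of the kept ones. The first, on chromosome 11 (119052871 to 119053443), scored 137.1 and the next, on chromosome 8 (13158978 to 13159385), scored 118.63. A score of 116.88 was shared by regions on chromosome 11 (55268674 to 55269246) and chromosome 12 (111685677 to 111686169), and the last of the 5, on chromosome 3 (148568223 to 148568871), scored 110.03. Their sham scores lay between 17.38 and 43.89, within the range of all kept regions in the sham list. The 10 kept regions highest by hepatectomy score (136.33 to 260.42) had sham scores from 35.44 to 123.65. Of the 5 regions not kept, only that on chromosome 12 had a sham score in this narrower range. For 4 of the 5 regions not kept the nearest silenced peak was at least 12804 bp away, and for that on chromosome 12 it was 420 bp away.

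Peaks of the 3 lists sat on one another closely, which the rule in part ensures, since it asks for peaks on the same merged region. In 674 of the 689 regions each of the 3 lists had exactly 1 peak. The midpoints of the hepatectomy and silenced peaks were a median of 36.5 bp apart, and 574 pairs (83.3%) lay within 100 bp. The midpoints of hepatectomy and sham peaks were a median of 32.0 bp apart. In the kept lasting regions, whose peaks were wider, the distance from hepatectomy to silenced midpoints had a median of 57.0 bp.

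What differed was the width. The hepatectomy peak had a median of 505 bp in these regions, the sham peak 457 bp and the silenced peak 292 bp, and the shortest peak of the silenced list had 247 bp. The silenced peak was narrower than the hepatectomy peak in 668 regions, and in 585 it lay wholly inside it. Narrower silenced peaks were not particular to these regions. In kept lasting regions the median was 798 bp for the hepatectomy peak and 416 bp for the silenced peak. Over the whole lists it was 429 bp and 333 bp. Width and score were correlated across the kept transient regions, with a Spearman rho of 0.52 in both the hepatectomy and the silenced list. Narrow silenced peaks and low silenced scores are thus not separate observations. The merged regions had a median of 554 bp (269 to 1835 bp), against 476 bp for transient regions not kept and 866.5 bp for kept lasting ones.

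Neither of the other silenced lists, which took no part in the rule, had a peak on a kept transient region. The silenced basal list had 177 peaks and the silenced 48 h list 102, and both counts over the 689 regions were 0 (0 to 0.534%). The background share among all regions with a peak in both 6 h lists was 0.807% for either of these lists. Among the 1534 kept lasting regions, 114 (7.43%, 6.17 to 8.86%) had a silenced basal peak and 64 (4.17%, 3.23 to 5.30%) a silenced 48 h peak. Among the 8733 transient regions not kept, 2 had a silenced 48 h peak and none a silenced basal one. The nearest silenced 48 h peak to a kept transient region was 470 bp away, and the nearest silenced basal peak 10425 bp. Both lists are short, and kept transient regions also lacked a peak in basal liver and at 48 h without silencing, so a 0 here says little about silencing in those states.

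Most kept transient regions stood clear of the peaks of the lists from which they were absent. Only 13 of the 689 (1.89%, 1.01 to 3.21%) had a peak of the basal, 48 h hepatectomy or 48 h sham list within 500 bp. For transient regions not kept it was 279 of 8733 (3.20%, 2.84 to 3.59%). Within 10 kb the counts were 188 (27.3%, 24.0 to 30.8%) and 2721 (31.2%, 30.2 to 32.1%). The nearest case, 134 bp from a 48 h hepatectomy peak, would pass as a persisting site under a wider merging distance. For the 10 highest by hepatectomy score, given above, the nearest such peak was between 3279 bp and 316095 bp away.

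The kept transient regions were scattered over the genome. They were found on all 19 autosomes, with 22 to 53 on each, and on chromosome X, with 3. A further kept transient region lay within 100 kb of 131 of them (19.01%, 16.2 to 22.2%), and the median distance to the nearest was 798 kb. For transient regions not kept, the share with a kept one within 100 kb was 17.0% (16.2 to 17.8%). The share among kept regions was 11.4% (8.73 to 14.6%) where peaks had to share at least 50% of each, and 13.7% with a score of at least 10 in every list; both leave fewer regions. A lasting region lay within 100 kb of 32.7% of the kept (29.2 to 36.3%) and 34.2% of the other transient regions (33.2 to 35.2%). At this scale the intervals of both kinds overlap. A transient region that was not kept lay within 100 kb of 541 of the 689 (78.5%, 75.3 to 81.5%), and a further such region lay within 100 kb of 80.2% (79.3 to 81.0%) of the transient regions not kept themselves.

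When kept transient regions spaced under 100 kb were joined, 558 stood alone, 47 groups had 2, 11 groups had 3 and 1 group had 4. The group of 4 lay on chromosome 9 between 55080802 and 55181279. Its regions had hepatectomy scores of 65.59, 16.05, 28.22 and 11.8 from left to right. The sham scores were 41.03, 18.72, 17.55 and 22.46, and the silenced scores 18.8, 13.11, 5.87 and 7.67. The leftmost was highest in all 3 lists. The stretch held 13 merged regions in all, of which 1 was transient and not kept and none was lasting.

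The kept transient regions took a growing part of the silenced 6 h list towards its weaker peaks. Of its 4325 peaks, 691 (16.0%, 14.9 to 17.1%) lay on one of them, 1585 (36.7%, 35.2 to 38.1%) on a lasting region and 2001 (46.3%) on another merged region, while 48 (1.11%) lay on none. In the highest decile of silenced score, 5 of 433 peaks (1.16%, 0.376 to 2.67%) lay on a kept transient region and 388 (89.6%) on a lasting one. In the lowest decile it was 105 of 350 (30.0%, 25.2 to 35.1%) and 50 (14.3%). Peaks on no merged region were also more frequent there, at 8 of 350 (2.29%, 0.992 to 4.45%), against 0 of 433 in the highest decile.

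**Figure D5:**
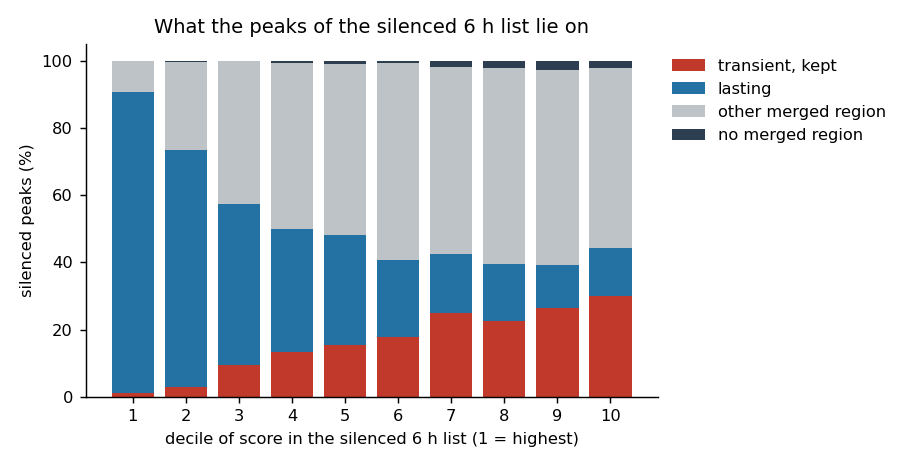
Peaks of the silenced 6 h hepatectomy list by decile of their own score (horizontal axis, 1 = highest), stacked by the merged region they lie on (vertical axis, percent of peaks in the decile). The part on kept transient regions (red) is 1.16% in the highest and 30.0% in the lowest decile, and the part on lasting regions (blue) is 89.6% and 14.3%.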

How the data were processed

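The analysis started from 8 deposited peak lists, 1 per library, of XBP1 chromatin immunoprecipitation with the antibody M-186 from mouse liver. The ninth sample, input DNA, was not analysed here. Bowtie2, MACS 1.4.2 and the build mm9 are named, per the submitters' processing notes. Settings, and the control used in calling, are not stated there.

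The authors' score per peak was read as −log10 of the p-value. On that scale 29.1%, 39.7% and 62.5% of the hepatectomy, sham and silenced 6 h scores fell on the steps of a Poisson tail. On a scale of 10 times −log10 of the p-value it was 6.28%, 8.67% and 10.7%. Steps lie farther apart on the latter scale, so fewer scores can fall on them. The share that would match on either scale without such steps was not computed, so the reading stays uncertain. A region's score in a list is that of its highest-scoring peak. Groups came from the titles. The planned gene and motif counts were not run, because the gene tables are on GRCm38.

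Python 3.11.15 was used with pandas 2.3.3, NumPy 2.4.6, SciPy 1.17.1 (intervals) and matplotlib 3.10.9 (plots). All 5 counts compared matched bedtools 2.31.1 on the deposited lists and the truth on simulated ones. Named regions followed a rule: the 10 highest by hepatectomy score, 5 by sham and 5 by silenced score, the 3 lowest, the 5 strongest not kept, those nearest the overlap limit and the largest group. The regions and rules were chosen with earlier results of these data known. Alternatives changed the overlap, score, merging distance, peaks used and lists in the rule.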

Additional observations from a re-analysis of the deposited data

How the results depend on the processing

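The number of kept transient regions stayed within 1.5 times 689 under 7 of 8 alternatives, from 481 to 708. With equal numbers of highest-scoring 6 h peaks it was 114, and the kept share 47.5%, with list length and score range changed together. When the overlap had to cover 50% or more of each peak, all 481 were among the 689. The kept share was then 5.11% (38.3% in the highest decile, against 54.6% for lasting regions), the median region width 493 bp, and the share with another kept region within 100 kb 11.4%. Silenced peaks were narrower, which lowers the kept share by construction. With a score of at least 10 in every list, 436 of 604 regions had the same coordinates as reported, the median hepatectomy score was 43.2 and the share within 100 kb 13.7%. With peaks within 500 bp merged, no other unsilenced list had a peak within that distance (0.0%), by construction. Lasting regions were kept more often than transient ones in the highest decile under the 3 alternatives computed for it. The gap was 29.1 points as reported, 16.2 with the 50% overlap, 24.1 with a score of at least 10 and 26.8 with merging within 500 bp. Scores in that decile are not matched, and the other deciles were not recomputed, so the gap at like score was not tested under these alternatives. No paired analysis was possible because there is 1 library per condition. Unknown read depth limits every absence of a peak.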

Other observations

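Chromosome X, singled out after its values were seen, held 3 of its 109 transient regions as kept (2.75%, 0.571 to 7.83%), the lowest share of any chromosome. On the autosomes the share lay between 5.71% (chromosome 8) and 8.56% (chromosome 19). The interval for chromosome X includes the share of 7.31% over all transient regions.

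A pair of groups of kept transient regions was also singled out after the values were seen. The second by hepatectomy score, on chromosome 15, headed a group of 3 between 59613746 and 59631467. The other two had hepatectomy scores of 32.85 and 16.05, sham scores of 28.43 and 17.55, and silenced scores of 10.99 and 9.97. In the silenced list the order was thus not that of the unsilenced lists, since the first region had the lowest silenced score of the 3, at 8.41. On chromosome 6, the region with the highest silenced score and the region with the fifth highest sham score belonged to one group of 3, between 37567444 and 37744536.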
